A study of Mus musculus with 2 samples.

Results

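Pericyte and smooth muscle nuclei were picked out of 1 library of nuclei from mouse tissue labelled retina by genes that mark mural cells, the supporting and contractile cells of the vessel wall. Members were chosen by measured UMI counts. A member had at least 200 detected genes and under 10% of its UMIs from mitochondrial genes, where a UMI (unique molecular identifier) counts 1 captured RNA molecule. The summed UMIs of Myh11, Notch3, Rgs5, Kcnmb1, Acta2 and Higd1b were at least 4 and at least 0.2% of the nucleus's UMIs, and Cdh5, Pecam1 and Ttn summed to at most 2 UMIs. The rule gave 113 members among 16867 kept nuclei (0.670%, exact binomial 95% interval 0.552 to 0.805%), from 17285 barcodes.

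The nuclei came from SeekSpace, a method in which a section of tissue lies on a capture chip so that nuclei isolated from it carry a position as well as their RNA. T1, the one specimen given, supplied both samples of the series, the RNA and the position barcodes, and is labelled as 1 section of 10 micrometres from 1 untreated eye on the C57BL/6J background. The study set Prph2 heterozygotes, which carry 1 missense allele of this photoreceptor outer segment gene, against wild types of the same age and sex, and its spatial work was done at 6 months. T1 carries no genotype and no replicate, so no groups exist, no comparison of genotypes was made, and no p-value could be had, since nuclei of 1 library are not replicates.

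Mural cells lie on the outside of the endothelial tube. Pericytes sit within the basement membrane of capillaries and are recruited there by endothelial PDGF-B acting on the receptor Pdgfrb, while Notch3, switched on by Jagged ligands of the endothelium, keeps mural cells in their state. Smooth muscle cells ring arterioles and venules and contract when calcium activates myosin light chain kinase. The retina is rich in pericytes, which belong to its blood barrier, and behind the retinal pigment epithelium (RPE) lies a separate vessel bed, the choroid.

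Member nuclei had a median of 1514 UMIs (range 385 to 12563) and 903 genes, against 1816 UMIs and 1044 genes in the other kept nuclei. Their summed depth was 218597 UMIs. The median mitochondrial share was 0.412% in members and 0.138% in other kept nuclei. Levels are given in CPM, the UMIs of a gene per 1000000 UMIs summed over the nuclei of a set, with exact Poisson 95% intervals. A ratio is CPM in members over CPM in another set, with a 95% interval of 2 Poisson counts. All intervals cover counting error only. A gene was measured in a comparison where its mean CPM over both sets was at least 25, and was called higher or lower at a ratio of at least 4 or at most 0.25, a rule of size and not a test. Levels of different genes were not compared, since CPM takes no account of gene length.

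Comparison sets were built with the same filters. Endothelial nuclei (773) carried Cdh5, Pecam1, Flt1, Erg, Egfl7 and Tie1, fibroblast nuclei (1064) carried collagen genes, Dcn, Lum and Pdgfra, and skeletal muscle nuclei (390) carried genes of the sarcomere. Each set had at most 2 UMIs of the 6 genes of the rule. The remaining set held all 16754 other kept nuclei. The tissue label says retina, yet skeletal muscle and fibroblast nuclei were also among the kept nuclei.

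The 6 genes of the rule describe how members were chosen and nothing is tested on them. Rgs5, a regulator of G-protein signalling typical of pericytes, had 661 UMIs in 97 of 113 members (85.8%, 78.0 to 91.7%). Notch3 had 560 UMIs in 82 members (72.6%, 63.4 to 80.5%). Myh11, the smooth muscle myosin heavy chain, had 333 UMIs in 56 members (49.6%, 40.02 to 59.1%), and Acta2, smooth muscle actin, had 144 UMIs in 29 members (25.7%, 17.9 to 34.7%). Higd1b and Kcnmb1 brought in few members, with 7 UMIs in 6 nuclei and 4 UMIs in 4 nuclei. In rod-like nuclei, which should lack these genes and had a median of 1062 UMIs, a UMI was seen in 0.175% for Rgs5, 0.105% for Notch3, 0.245% for Myh11 and 0.140% for Acta2.

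The summed UMIs of the rule had a median of 9 per member and reached 262 in 1 nucleus, and 29 members had a sum of 4 or 5. Members carried few of the 6 genes each: 21 members had 1 of them, 40 had 2, 37 had 3, 13 had 4, 2 had 5 and 0 had all 6. Just inside the threshold, Pdgfrb, which the rule does not use, was detected in 14 of the 29 members with a sum of 4 or 5. Just outside it, 5 of 15 nuclei with a sum of 3 that met the rest had Pdgfrb. A further 108 nuclei met the mural part of the rule but had over 2 UMIs of Cdh5, Pecam1 and Ttn. Of these, 76 had Pdgfrb. Of the members, 23 had 1 UMI and 18 had 2 UMIs of Cdh5, Pecam1 and Ttn.

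The label was checked against 12 mural markers that the rule does not use: Pdgfrb, Cspg4, Kcnj8, Abcc9, Vtn, Tagln, Cnn1, Lmod1, Myocd, Tbx18, Foxs1 and Ebf1. All 12 were detected in members. Their summed level was 8834 CPM in members, against 1208 CPM in endothelial, 3106 CPM in fibroblast, 193 CPM in skeletal muscle and 667 CPM in all other kept nuclei. A UMI of any of these markers was found in 84.1% of members, and also in 85.1% of fibroblast and 68.6% of endothelial nuclei. At least 4 UMIs and 0.2% of these markers were found in 81 of 113 members and not in the other 32.

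Markers of other cell types were also present in members. The endothelial list of 10 genes summed to 3294 CPM in members, against 8386 CPM in endothelial nuclei, and 42 members had at least 4 UMIs and 0.2% of it. The fibroblast list summed to 2443 CPM in members, against 12591 CPM in fibroblast nuclei, and 38 members passed the same mark. The fibroblast list includes Lama2, whose level in members was close to that in fibroblast nuclei. The ganglion cell list was passed by 15 members, with Slc17a6, Pou4f1 and Pou4f2 at 0 UMIs. Passing a list thus does not by itself mark a mixed nucleus. In all, 89 members carried at least 4 UMIs and 0.2% of a list of some other class, and 24 carried none. In those 24, Acta2 stood at 212 CPM, against 659 CPM in all members, and Myh11 at 1059 CPM, against 1523 CPM. Pdgfrb was at 4132 CPM and Abcc9 at 2896 CPM in the 24, against 2374 and 1098 CPM in all members, and 15 of 18 levels lay outside the 95% interval of all members. The skeletal muscle list was at 133 CPM in members, against 96522 CPM in skeletal muscle nuclei, with Myh1 and Ryr1 at 0. Doublets and free RNA were not removed, and their part in the results was not tested.

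Clustering of all kept nuclei placed 89 of the 113 members in cluster 17, a cluster of 282 nuclei with both mural and endothelial markers that therefore has no name. Another 13 members lay in a fibroblast-like cluster, numbered 3, where Flt1 was at 0 UMIs. The 4 members in cluster 35 went against the label: they had 29 UMIs of the astrocyte gene Gfap in 3 nuclei, 9 UMIs of Pax2 and 25 UMIs of Pdgfra, with Notch3 at 0 and Pdgfrb at 1 UMI. Of these 4, 3 had entered through Rgs5, with 27 UMIs. The other had 0 UMIs of Rgs5 and entered through 3 UMIs of Myh11 and 2 UMIs of Acta2. It also held the 1 Pdgfrb UMI. In the 61 members with under 4 endothelial UMIs and outside cluster 35, Rgs5 stood at 2164 CPM, against 3024 CPM in all members, and Epas1 at 1686 CPM, against 2553 CPM. Shared endothelial genes were lower there too: Notch1 was at 424 CPM, Notch4 at 65.3 CPM, Pdgfb at 54.4 CPM and Eng at 348 CPM, against 640, 142, 201 and 576 CPM in all members. Pdgfrb was at 3263 CPM there, against 2374 CPM in all members.

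**Figure D1:**
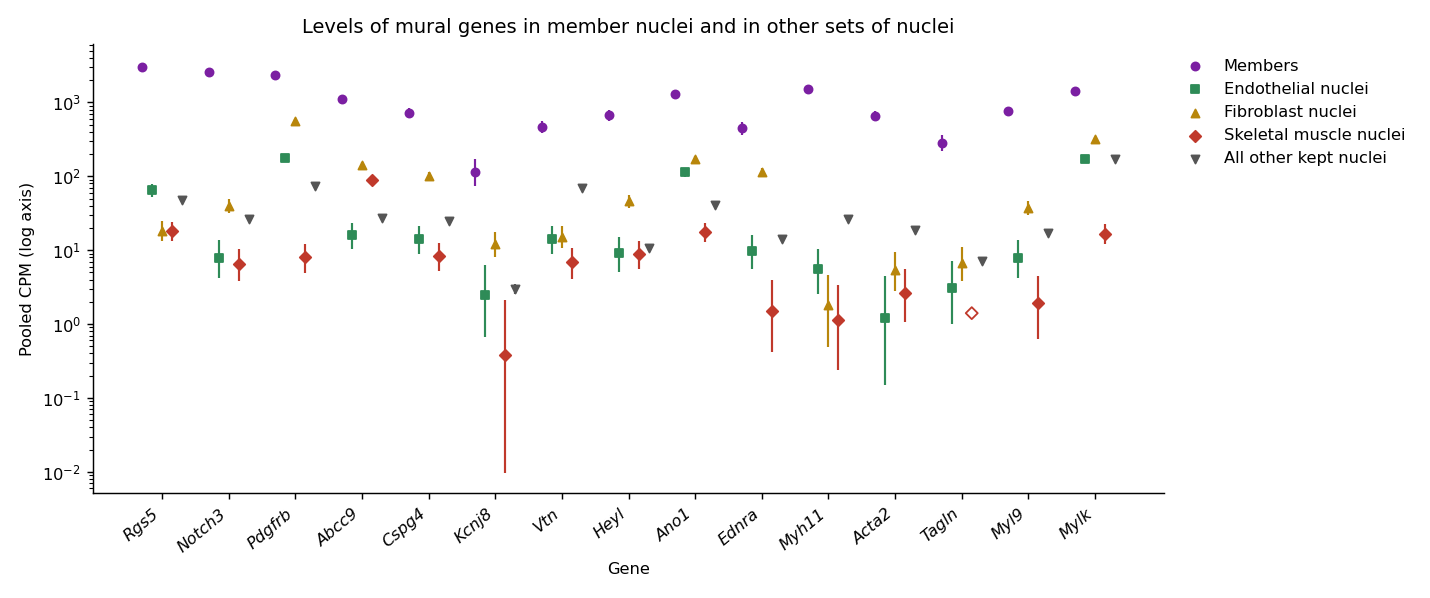
Pooled levels of 15 mural genes (log axis, CPM) in member nuclei (leftmost of each group of points), endothelial, fibroblast and skeletal muscle nuclei and all other kept nuclei, with exact Poisson 95% intervals; open symbols are the upper bound of a count of 0. Members are highest for all 15 genes, of which Rgs5, Notch3, Myh11 and Acta2 served to choose them. Pdgfrb was 4.20 times its level in fibroblast nuclei.

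Genes of pericytes outside the rule were high in members. Pdgfrb, the receptor for PDGF-B, had 519 UMIs in 83 members (73.5%, 64.3 to 81.3%) and 2374 CPM (2174 to 2588), against 177 CPM in endothelial, 566 CPM in fibroblast and 73.4 CPM in all other kept nuclei. Abcc9 encodes the regulatory subunit of the potassium channel by which pericytes sense metabolic state. It stood at 1098 CPM (963 to 1246) in members, against 27.5 CPM in all other kept nuclei, a ratio of 39.95 (34.7 to 45.8). Its pore partner Kcnj8 had 25 UMIs in 15 members and a ratio of 37.9 (23.9 to 58.0).

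Cspg4, the proteoglycan NG2 that is a classical pericyte antigen, was at 718 CPM in members, against 101 CPM in fibroblast nuclei and 25.2 CPM in all other kept nuclei. Vtn (vitronectin) had a ratio of 6.63 (5.39 to 8.07) to all other kept nuclei, lower because other classes also held it. Mcam, an adhesion molecule shared with endothelium, was 20.8 times its level in all other kept nuclei and 4.16 times that in endothelial nuclei.

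Counted over the list, 16 of 17 measured pericyte genes were at least 4 times higher in members than in all other kept nuclei, where 8.25% of 7180 genes were. The 2 that chose the members, Rgs5 and Higd1b, belong to the list, and Higd1b was too low to be counted. Slc6a20a, a transporter of brain pericytes, was the exception, with 1 UMI in members and a ratio of 0.0655. The RPE also expresses this gene. The median ratio of the list was 27.7, against 1.00 over all genes measured. Against fibroblast nuclei, 15 of 16 measured genes were at least 4 times higher, where 5.05% of all genes were. Anpep was not, at 124 CPM in members and 278 CPM in fibroblast nuclei.

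Genes of the contractile apparatus were detected in differing numbers of members. Mylk, the kinase that switches on smooth muscle myosin, had 309 UMIs in 70 members and a ratio of 8.35 (7.43 to 9.35) to all other kept nuclei. Myl9, the regulatory light chain it acts on, was at 755 CPM in members, against 37.7 CPM in fibroblast and 7.95 CPM in endothelial nuclei. Tagln, an actin-binding protein of smooth muscle, had 62 UMIs in only 17 members and a ratio of 39.9 (29.99 to 52.2) to all other kept nuclei. Cald1 (caldesmon) had a ratio of 11.2 and Tpm1 (tropomyosin) of 4.16, with a higher Tpm1 level, 1136 CPM, in skeletal muscle nuclei.

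Of 16 measured contractile genes, 11 were at least 4 times higher in members than in all other kept nuclei and 0 at least 4 times lower. Of all genes, 8.25% were higher and 12% lower. Acta2 and Myh11, which chose the members, are among the 11. Against endothelial nuclei 12 of 16 were higher and 0 lower, where 4.06% of all genes were higher and 5.9% lower. Against skeletal muscle nuclei 10 of 16 were higher and 2 lower, where 31.5% of all genes were higher and 6.44% lower. Late markers of mature smooth muscle were sparse: Cnn1 had 4 UMIs in 3 members, Pln 5 UMIs in 1 member and Actg2 1 UMI. Des, the intermediate filament gene of muscle, had 18 UMIs and a ratio of 1.01.

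A single nucleus held much of the contractile signal. It was the member with 262 UMIs of the rule genes, among 11163 in all, and it carried 103 of the 333 Myh11 UMIs and 58 of the 144 Acta2 UMIs. Without it Myh11 stood at 1109 CPM instead of 1523 CPM, Acta2 at 415 CPM instead of 659 CPM, and Tagln at 198 CPM instead of 284 CPM. Pdgfrb moved little, to 2463 CPM without this nucleus.

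Smooth muscle genes are controlled by serum response factor, which binds the CArG box, CC, then a core of 6 A or T bases, then GG. Promoter windows of 250 bases before the start site, from RefSeq's annotation of GRCm38.p6, were searched on both strands with at most 1 core base that is not A or T. A match was found in 2 of 18 windows of contractile genes, those of Acta2 and Myl9 (11.1%), against 8.59% of 32851 windows of all genes. With no exception in the core, Myl9 alone matched, against 1.47% of all windows. The 4 matches are shown because they are all that the contractile list held. Each is printed 5′ to 3′ along the gene with 10 bases on either side and the box in capitals, at chr19:34255438-34255467 and chr19:34255388-34255417 (minus strand), and chr2:156775293-156775322 and chr2:156775355-156775384 (plus strand).
Acta2, 84 bases before the start: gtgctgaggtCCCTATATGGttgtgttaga
Acta2, 34 bases before the start: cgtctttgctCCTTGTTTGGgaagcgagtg
Myl9, 161 bases before the start: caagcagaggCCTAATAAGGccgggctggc
Myl9, 99 bases before the start: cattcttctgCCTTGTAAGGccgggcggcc

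For comparison, the 250 bases before the start of Rgs5 (chr1:169655251-169655500, plus strand) and Abcc9 (chr6:142702275-142702524, minus strand), both pericyte genes, held no match and are shown in lower case throughout.
Rgs5: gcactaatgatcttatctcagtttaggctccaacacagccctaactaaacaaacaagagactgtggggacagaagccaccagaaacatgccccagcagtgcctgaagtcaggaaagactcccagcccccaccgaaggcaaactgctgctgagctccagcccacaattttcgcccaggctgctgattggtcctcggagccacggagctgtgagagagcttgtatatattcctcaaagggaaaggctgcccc
Abcc9: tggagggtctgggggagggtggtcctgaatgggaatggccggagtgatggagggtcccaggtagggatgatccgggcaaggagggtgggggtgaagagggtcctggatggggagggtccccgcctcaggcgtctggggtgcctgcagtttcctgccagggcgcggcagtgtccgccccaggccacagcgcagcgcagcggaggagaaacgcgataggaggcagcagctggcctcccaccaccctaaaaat
A match is a run of letters and not a measured site. Of 13 pericyte genes with a window, 1 held a match.

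Transcription factors of mural cells were measured in 18 genes, of which 11 were at least 4 times higher and 1, Meis2, at least 4 times lower in members than in all other kept nuclei, where 8.25% of all genes were higher and 12% lower. Against endothelial nuclei 7 of 18 were higher, where 4.06% of all genes were. Heyl, a target of Notch3, had 146 UMIs in 45 members and a ratio of 62.7 (51.9 to 75.2). Ebf1 (3335 CPM) and Epas1 (2553 CPM), an oxygen-sensing factor, had ratios of 7.53 and 7.08. Against endothelial nuclei the ratio of Epas1 was 1.85 (1.68 to 2.03), and against fibroblast nuclei that of Ebf1 was 1.495. Ebf2 was at 517 CPM in members and at 1116 CPM in fibroblast nuclei. Myocd, the cofactor that drives smooth muscle genes, had 21 UMIs in 11 members and a ratio of 30.4 (18.3 to 47.9). Foxd1 was at 0 UMIs.

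In the Notch pathway, 5 of 11 measured genes were at least 4 times higher in members than in all other kept nuclei, where 8.25% of all genes were, and one of the 5 is Notch3, a gene of the rule. Against endothelial nuclei 3 of 16 were higher and 1 lower, where 4.06% of all genes were higher and 5.9% lower. The median ratio there was 0.948. The ligand Jag1 was at 320 CPM in members, against 60.0 CPM in endothelial nuclei. Among the other receptors, Notch1 (640 CPM) and Notch4 (142 CPM) were close to their levels in endothelial nuclei, at ratios of 1.05 (0.872 to 1.25) and 0.837 (0.558 to 1.22). Dll1 was at 0 UMIs. Of the PDGF genes, 3 of 4 measured were at least 4 times higher than in all other kept nuclei, where 8.25% of all genes were. Against endothelial nuclei 2 of 5 were, where 4.06% of all genes were, with a median ratio of 0.855. The ligand Pdgfb is an endothelial gene, and its 201 CPM in members compares with 255 CPM in endothelial nuclei. Pdgfra, the fibroblast receptor, had 36 UMIs in 10 members, 25 of them in cluster 35.

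Channels that set calcium and membrane potential were uneven. Cacna1c, the pore of the L-type calcium channel, was at 2347 CPM in members, against 63.6 CPM in endothelial and 342 CPM in fibroblast nuclei. Ano1, the calcium-activated chloride channel, was at 1295 CPM (1148 to 1455) in members and 31.6 times lower in all other kept nuclei. Itpr1, the calcium release channel, had a ratio of 2.58 (2.18 to 3.04). Of 23 measured channel genes, 7 were at least 4 times higher and 4 at least 4 times lower in members than in all other kept nuclei, where 8.25% of all genes were higher and 12% lower. Against endothelial nuclei 11 of 22 were higher and 0 lower, where 4.06% of all genes were higher and 5.9% lower. Kcnma1 is the pore of the large-conductance potassium channel whose mural subunit is Kcnmb1, and its ratio was 0.160.

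Receptors for vasoactive signals were mostly sparse, and 8 of 26 could be measured against all other kept nuclei, of which 6 were at least 4 times higher in members, where 8.25% of all genes were. Against endothelial nuclei 3 of 12 were higher and 2 lower, where 4.06% of all genes were higher and 5.9% lower. The median ratio there was 1.22. Ednra, the endothelin receptor of vessel walls, had 98 UMIs in 40 members and 0 in rod-like nuclei, with a ratio of 31.9 (25.6 to 39.4). Ednrb and the sphingosine receptor S1pr3 had 37 UMIs each, with ratios of 7.18 and 7.22. P2ry14, a receptor for UDP-sugars that overlaps the gene Med12l, had 28 UMIs and a ratio of 33.7 (21.8 to 50.1). Agtr1a, the angiotensin receptor, had 13 UMIs in 11 members, and Agtr1b and Htr2b were at 0.

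Of the relaxing pathway through nitric oxide and cGMP, 7 of 17 measured genes were at least 4 times higher in members and 3 at least 4 times lower than in all other kept nuclei, where 8.25% of all genes were higher and 12% lower. Mrvi1, the substrate by which cGMP-dependent kinase restrains calcium release, had 238 UMIs in 59 members and a ratio of 54.8 (47.4 to 63.1). The kinase itself, Prkg1, was at 4378 CPM, with a ratio of 3.54 (3.32 to 3.78) to all other kept nuclei and 2.11 to endothelial nuclei. Arhgap42, which lowers RhoA activity in smooth muscle, had a ratio of 11.8. Pde3b was at 0 UMIs.

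Basement membrane and matrix genes were shared with endothelial and fibroblast nuclei. Against all other kept nuclei, 15 of 27 were at least 4 times higher in members, where 8.25% of all genes were. Against endothelial nuclei 4 of 27 were higher and 1 lower, where 4.06% of all genes were higher and 5.9% lower. Against fibroblast nuclei 2 were higher and 5 lower, where 5.05% of all genes were higher and 4.64% lower. Col4a1 and Col4a2, the network collagens of basement membranes, were at 952 and 750 CPM in members, with ratios to endothelial nuclei of 1.99 and 1.47. Lamc3, a laminin chain, stood apart from the list, at 622 CPM in members, against 96.1 CPM in fibroblast and 15.3 CPM in endothelial nuclei. Lama2 was at 947 CPM in members, against 981 CPM in fibroblast nuclei. Col1a1, which marks fibroblasts, was at 435 CPM in members and 4257 CPM in fibroblast nuclei.

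Of 21 measured genes of adhesion and gap junctions, 10 were at least 4 times higher in members than in all other kept nuclei, where 8.25% of all genes were. Itga1 and Itga7, integrin chains that bind collagen and laminin, had ratios of 24.1 (19.97 to 28.9) and 20.1 (15.5 to 25.6). Gja4 (connexin 37) had 34 UMIs in 28 members and a ratio of 63.6 (42.3 to 93.3), and Utrn (utrophin) one of 5.32. Sgca was at 0. Of 26 measured angiogenic and TGF-beta genes, 9 were at least 4 times higher and 3 at least 4 times lower, against 8.25% and 12% of all genes. Against endothelial nuclei 3 were higher and 2 lower, where 4.06% of all genes were higher and 5.9% lower. The median ratio there was 0.944. Eng was at 576 CPM in members and 996 CPM in endothelial nuclei. Ephb1 and Rspo3 were at 0.

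Of 11 measured transporters known from brain pericytes, 3 were at least 4 times higher and 2 at least 4 times lower in members than in all other kept nuclei, where 8.25% of all genes were higher and 12% lower. Slc38a11 had 58 UMIs in 29 members and 0 in each of the endothelial, fibroblast and skeletal muscle sets, and was 89.7 times (65.2 to 122) its level in all other kept nuclei. Slc6a13 was at 0. Slc1a3, a glutamate transporter, had 41 UMIs in 4 members, and none of them lay in an inside or outside member of cluster 17.

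Genes were then ranked over the whole table by their level in members relative to the highest of the comparison sets, among 2303 genes with at least 20 UMIs in members. Of these, 72 were at least 4 times the highest set. The first 20 included Slc38a11, Notch3, Myh11, Rgs5, Adap2, Tagln, Rasl12, Acta2, Pde4c, Il34, Myocd, Ndufa4l2, Mrvi1, Myl9, Tbx3os1, Gja4, 4833422C13Rik, Heyl and Lmod1. Il34, a ligand of the colony-stimulating factor receptor of macrophages, had 103 UMIs in 39 members and was 42.3 times (34.0 to 52.2) its level in all other kept nuclei. Adap2, a GTPase-activating protein, had 81 UMIs in 42 members and a ratio of 40.2 (31.4 to 51.0). Pde4c, a cAMP phosphodiesterase, had 21 UMIs in 19 members. The antisense gene Tbx3os1 had 41 UMIs in 21 members. Tagln, Ndufa4l2 and Rasl12 overlap the coding genes Pcsk7, Shmt2 and Slc51b, and Kcnmb1, Higd1b and Tpm2 overlap Kcnip1, Eftud2 and Car9, so part of their UMIs may belong to either gene.

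Genes were seen together unevenly within members. Of the 82 members with Notch3, 77 had Pdgfrb (93.9%), and of the 31 without it 6 did (19.4%). Of the 56 members with Myh11, 22 had Acta2 (39.3%), and of the 57 without it 7 did (12.3%). Rgs5 went the other way with Acta2, which was found in 21 of the 97 members with Rgs5 (21.6%) and in 8 of the 16 without it. A deeper nucleus shows more genes, and a member without one gene of the rule had to carry others, so these shares are descriptions.

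Members ranged from contractile to pericyte profiles. S is the sum of UMIs of Acta2, Myh11, Tagln, Cnn1, Lmod1 and Kcnmb1, and P that of Kcnj8, Abcc9, Vtn, Higd1b, Atp13a5 and Pdgfrb. A member was called contractile-leaning with S at least 3 and at least 3 times P, and pericyte-leaning the other way round. There were 17 contractile-leaning members (15.04%, 9.01 to 23.0%), 52 pericyte-leaning members (46.02%, 36.6 to 55.6%) and 44 that were neither, of which 15 had no UMI of any of the 12 genes. Of the 17 contractile-leaning members 11 had at least 1 UMI of both lists, as had 27 of the 52 pericyte-leaning members, so the classes are a range cut from counts and not separate types. In cluster 17 lay 12 contractile-leaning and 46 pericyte-leaning members. In the fibroblast-like cluster 3 lay 4 contractile-leaning members, each with 0 UMIs of Notch3, Rgs5, Pdgfrb and Abcc9. All but 1 of these lay at nearly the same position in piece 1 of the tissue (x 1904 to 1926, y 6594 to 6609).

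**Figure D2:**
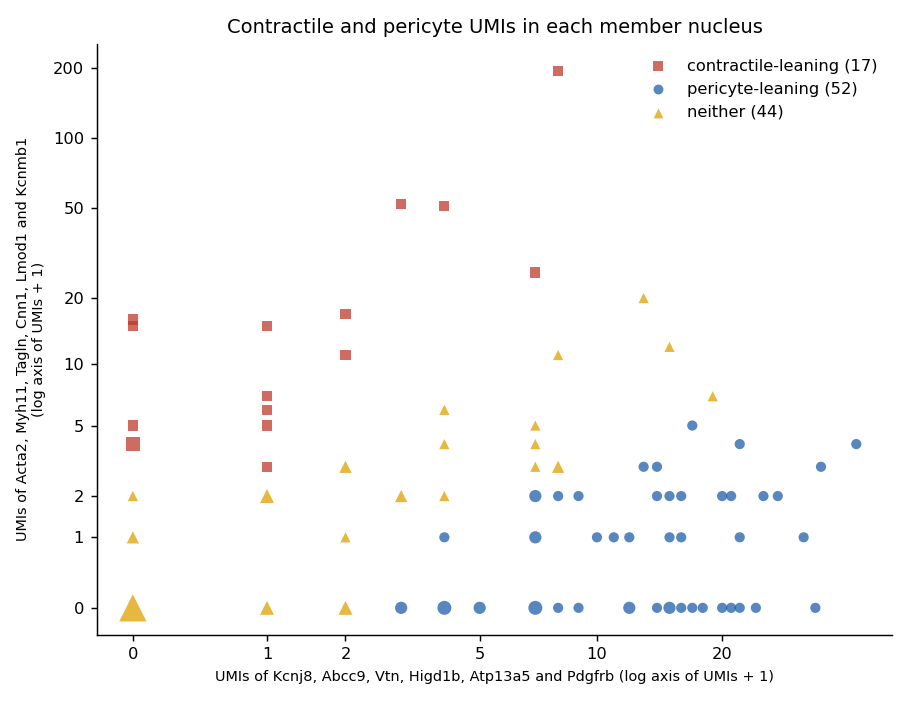
Summed UMIs of 6 contractile genes (vertical) against 6 pericyte genes (horizontal) in each of the 113 members, on log axes of UMIs + 1; larger symbols stand for more nuclei at the same point. Contractile-leaning members (17, squares) lie at the upper left, pericyte-leaning members (52, circles) at the lower right, and 1 nucleus reaches 195 contractile UMIs.

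Genes outside S and P also differed between the leanings. The nucleus of most rule UMIs held 11163 of the 34895 UMIs of the contractile-leaning members. All ratios here include it, except where a value without it is given. Kcnma1 had 41 UMIs in 7 contractile-leaning members (1175 CPM), against 2 UMIs in pericyte-leaning members (18.3 CPM), a ratio of 64.3 (16.7 to 549). Dtna (dystrobrevin) had 23 UMIs in 7 contractile-leaning members, against 1 UMI in pericyte-leaning members, a ratio of 72.1 (11.7 to 2972). Kcnab1, a potassium channel subunit, had the highest ratio, 109.8 (18.5 to 4458), but 35 UMIs in 4 contractile-leaning members became 4 UMIs without the nucleus of most rule UMIs. Csrp1, a LIM protein of smooth muscle, was 13.8 times higher with and without this nucleus. Palld (palladin), Ctnna3 (an alpha-catenin) and Fgf1 had ratios of 16.5, 15.1 and 13.3, and of 6.92, 5.87 and 8.07 without this nucleus. Mylk was at 3725 CPM in contractile-leaning members, against 959 CPM in pericyte-leaning members, a ratio of 3.88 (2.98 to 5.07).

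The genes of lowest ratio included a synapse gene and a laminin chain. Grm7, a glutamate receptor gene, had 2 UMIs in contractile-leaning members and 149 in 23 pericyte-leaning members. Csmd1 had 1 UMI in contractile-leaning members and 111 UMIs in 7 pericyte-leaning members. Lamc3 had a ratio of 0.0323, from 1 UMI in contractile-leaning members and 97 in 25 pericyte-leaning members. Sema6d, Col8a1, Slc12a2, Vstm4 and Herc1 followed, at 0.0468 to 0.0713.

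Among the lists, the matrix genes Lama2, Fbn1 and Mgp and the cytokine Il34 were lower in contractile-leaning members, at ratios of 0.104, 0.105, 0.113 and 0.118, while Lama5, a laminin chain, was 6.72 times higher. Ebf1 had a ratio of 0.221 and Ano1 one of 0.209. Genes near equal between the leanings were Prkg1 (0.867, 0.723 to 1.03), Cacna1c (0.879, 0.676 to 1.13), Epas1 (0.869) and Cspg4 (0.864). Over all 5068 genes measured here, 5.66% were at least 4 times higher and 4.54% at least 4 times lower in contractile-leaning members. Endothelial markers summed to 1662 CPM in contractile-leaning members and 2531 CPM in pericyte-leaning members, and fibroblast markers to 1719 and 2814 CPM in the same order. Melanocyte markers went the other way, at 1404 CPM in contractile-leaning and 429 CPM in pericyte-leaning members. The 12 mural markers outside the rule reached 4 UMIs in 8 of 17 contractile-leaning and 51 of 52 pericyte-leaning members, and 7 of these markers also served to define the leanings. The part of other cell types in the differences was not tested.

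**Figure D3:**
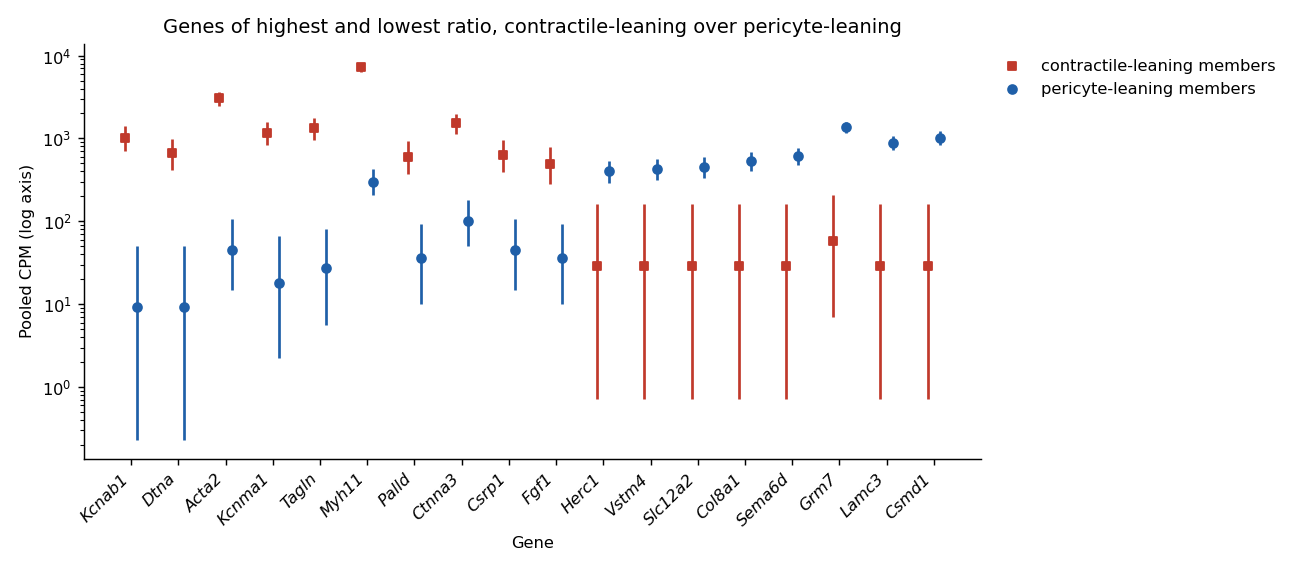
Pooled levels (log axis, CPM) of 10 genes of highest and 8 of lowest ratio in contractile-leaning (17, squares, left) and pericyte-leaning members (52, circles, right), with exact Poisson 95% intervals. Acta2, Tagln and Myh11 helped to set the leaning; on the right, contractile-leaning members have 1 or 2 UMIs of each gene.

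The tissue lay on the chip as 4 ring-shaped pieces, although the labels describe 1 section, and members were found in all of them. Pieces 1 to 4, numbered from the left, held 23, 27, 27 and 36 members among 4480, 4122, 3695 and 4570 kept nuclei, shares of 0.513, 0.655, 0.731 and 0.788%. Their exact intervals overlapped (0.326 to 0.769% in piece 1 and 0.552 to 1.09% in piece 4). Rgs5 was steady over the pieces, at 3380, 3357, 2584 and 2899 CPM, and Pdgfrb stood at 2011, 3229, 1915 and 2413 CPM. Myh11 was uneven, at 4064, 1253, 253 and 942 CPM, and so was Acta2, at 1638, 382, 307 and 441 CPM. The member with the most rule UMIs lies in piece 1. Contractile-leaning members numbered 7, 4, 2 and 4. The pieces carry no group in the labels and were not compared further.

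**Figure D4:**
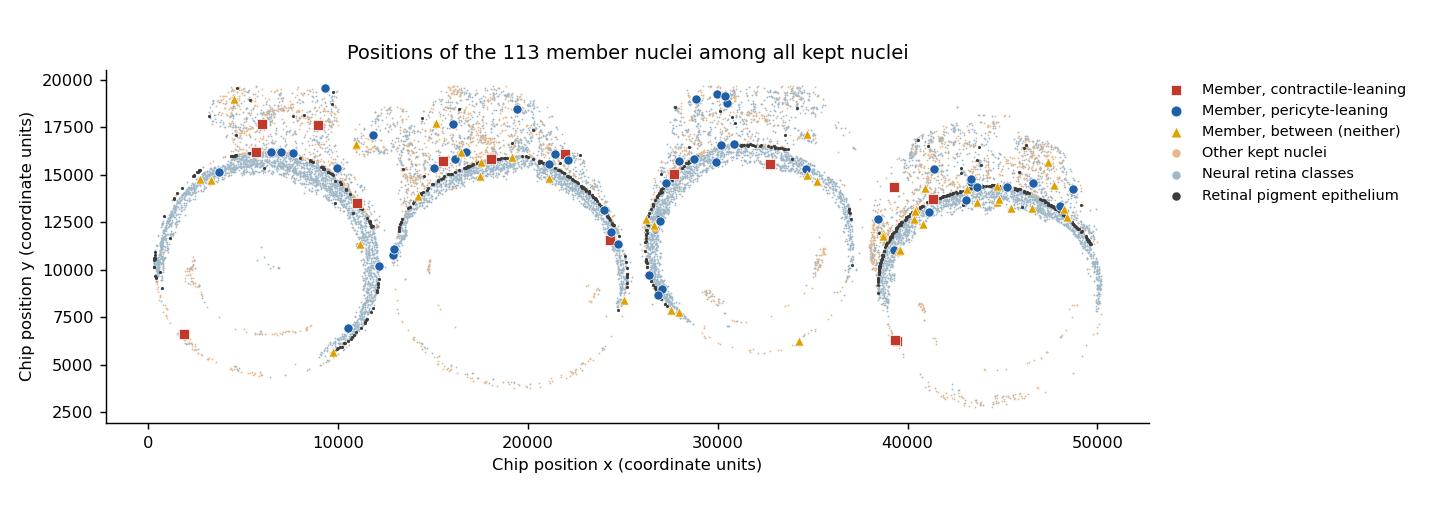
Chip positions (in coordinate units of unstated length) of the 113 members by leaning, over all kept nuclei, with neural retina classes and RPE-like nuclei marked. Members follow the retinal band and the RPE line in all 4 pieces and are scattered in the tissue outward of it.

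Members were near other members more often than their share of nuclei. Among the 20 nearest kept nuclei of each member, 38 of 2260 were members (1.68%), 2.51 times their share of all kept nuclei, and 1.93 to 2.76 times in the pieces. The members of cluster 3 that lay at nearly the same position in piece 1 are among those counted. RPE-like nuclei were 1.44 times, melanocyte-like nuclei 1.42 times and fibroblast nuclei 1.23 times as frequent near members as among all kept nuclei, and neural retina classes 0.896 times. Endothelial nuclei were 1.18 times as frequent, with 1.04, 0.889, 0.525 and 1.97 times in pieces 1 to 4. The median distance from a member to the nearest endothelial nucleus was 239 coordinate units, against 246 units from other nuclei. The 108 nuclei left out for Cdh5, Pecam1 and Ttn belong to neither of these sets.

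Place relative to the retina was taken from the 20 nearest kept nuclei that were not members. A member was called inside where a share of at least 0.75 of them belonged to neural retina classes, and outside at a share of 0.5 or less. There were 43 inside members (38.1%, 29.1 to 47.7%), 46 outside members (40.7%, 31.6 to 50.4%) and 24 between. At least 4 UMIs of the 12 mural markers outside the rule were found in 26 of 43 inside members and 32 of 46 outside members. Inside members had a median of 5 UMIs of these markers and 7 UMIs of the endothelial list, against 16.5 and 1 in outside members. Measured from the line of RPE nuclei, 29 of the 43 inside members lay more than 100 units inward, 5 at the line, 5 outward and 4 where no RPE was near. Of the 46 outside members, 0 lay inward.

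By distance from the RPE line, most inward members lay at depths of the inner retina. All 15 members with no UMI of the S and P genes had Rgs5 alone among the rule genes, and most of them were inside members. Many inward members had UMIs of Rgs5 alone among the rule genes, with Pdgfrb and Abcc9 at 0. The 1 member in a lens-like cluster was such a nucleus, with 7 UMIs of Rgs5 at 1014 units inward. What depth the inward members would have without such nuclei was not tested. The median distance of all inward members from the RPE line was 618 units, with quartiles of 455 and 749 units. It was 417 units for endothelial nuclei inward of the line. Amacrine-like nuclei had a median of 479 units and ganglion cell-like nuclei one of 687 units. These 2 medians cover all nuclei of the class with a distance, not inward ones alone. The lower quartiles of rod-like and bipolar-like nuclei were -689 and -760 units, outward of the line. The distance thus did not place all nuclei of retinal classes inward. Ganglion cell-like nuclei were 3.34 times and amacrine-like nuclei 2.41 times as frequent near inside members as among all kept nuclei. Near outside members, melanocyte-like nuclei were 3.12 times, fibroblast-like nuclei 2.61 times and RPE-like nuclei 2.25 times as frequent. Contractile-leaning members numbered 3 inside and 13 outside, and pericyte-leaning members 16 inside and 19 outside.

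Contractile genes outside the rule were lower in inside than in outside members. Tpm1 had 9 UMIs in 7 inside members, against 93 UMIs in 29 outside members, a ratio of 0.140 (0.0622 to 0.278), and Lmod1 had a ratio of 0.0783 (0.00915 to 0.304) and Tagln of 0.0630. Myh11 and Acta2 helped to choose the members, and 42 of 43 inside members had Rgs5, against 35 of 46 outside members, so their values are a description that the rule may shape. Myh11 had 31 UMIs in 15 inside members (455 CPM), against 253 UMIs in 30 outside members (2563 CPM), a ratio of 0.178 (0.118 to 0.258). Acta2 had a ratio of 0.203 (0.112 to 0.345). Without the nucleus of most rule UMIs, which lies outside, Myh11 had a ratio of 0.266, Acta2 0.367, Tpm1 0.193 and Tagln 0.103. Members with Rgs5 alone among the rule genes lay mostly inside, and their part in these ratios was not tested. Of 5818 genes measured, 4.8% were at least 4 times lower and 6.74% at least 4 times higher in inside members.

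Pericyte genes differed less, except Vtn. Rgs5 was at 4066 CPM in inside members, against 2958 CPM in outside members, a ratio of 1.37 (1.16 to 1.63). Abcc9 had a ratio of 1.38 (1.01 to 1.89) and Pdgfrb one of 0.754 (0.604 to 0.937). Vtn had 70 UMIs in 19 inside members (1028 CPM), against 22 UMIs in 10 outside members (223 CPM), a ratio of 4.61 (2.82 to 7.82). Notch3 and Prkg1 were lower, at ratios of 0.562 and 0.393.

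Other genes lower in inside members were Csmd1, with 4 UMIs inside and 149 UMIs in 10 outside members, Postn, Cdh6, Col3a1, Kcnab1, Rbpms2, Kcnq5 and Tyrp1, at ratios of 0.0389 to 0.0690. Col3a1, a fibroblast collagen, had 2 UMIs inside and 53 UMIs in 18 outside members. Tyrp1 is a pigment gene of melanocytes, whose marker list was at 191 CPM in inside and 750 CPM in outside members. Trpc6, a cation channel of smooth muscle, had 0 UMIs inside and 22 UMIs in 11 outside members, at most 0.198 times as high inside (with 3 counts set for 0).

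Genes higher in inside members included many known from endothelium and glia. Slc16a1 (a lactate transporter), Atp10a, Slc39a10 and Spock2 had ratios of 46.4, 37.7, 26.1 and 30.6. Fn1 (fibronectin) was at 1864 CPM in inside members, against 142 CPM in outside members, a ratio of 13.1 (7.55 to 24.7). Tek (the angiopoietin receptor) was 8.21 and Pdgfb 7.83 times higher. The endothelial list was at 5666 CPM in inside members, against 2330 CPM in outside members, and 28 of 43 inside members had at least 4 UMIs of it, against 15 of 46 outside members. Slc1a3, Aldoc, Trf and Ntrk2, genes of glia, had 40, 61, 43 and 41 UMIs in 3, 6, 3 and 4 inside members. The Müller glia list was at 3905 CPM in inside and 770 CPM in outside members, and the astrocyte list at 705 and 142 CPM.

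These differences were therefore repeated in narrower sets. In cluster 17 alone, with 35 inside and 36 outside members, Slc1a3, Trf and Ntrk2 had 0 UMIs inside and Aldoc had 3, while Trpm3 kept 9 of its 44 inside UMIs. In the 12 inside and 30 outside members with under 4 endothelial UMIs and outside cluster 35, Slc16a1 had 2 UMIs inside and 0 outside, Atp10a 1 and 1, Slc39a10 1 and 0 and Tek 1 and 0, too few for a ratio. There, Vtn had a ratio of 4.91, Fn1 of 4.85, Pdgfb of 10.51 (from 4 UMIs inside and 1 outside) and Spock2 of 23.7 (from 9 and 1). Myh11 had a ratio of 0.206 and Acta2 one of 0.263, from 3 UMIs inside and 30 outside. Notch3 stood at 1.11, against 0.562 in all inside and outside members.

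**Figure D5:**
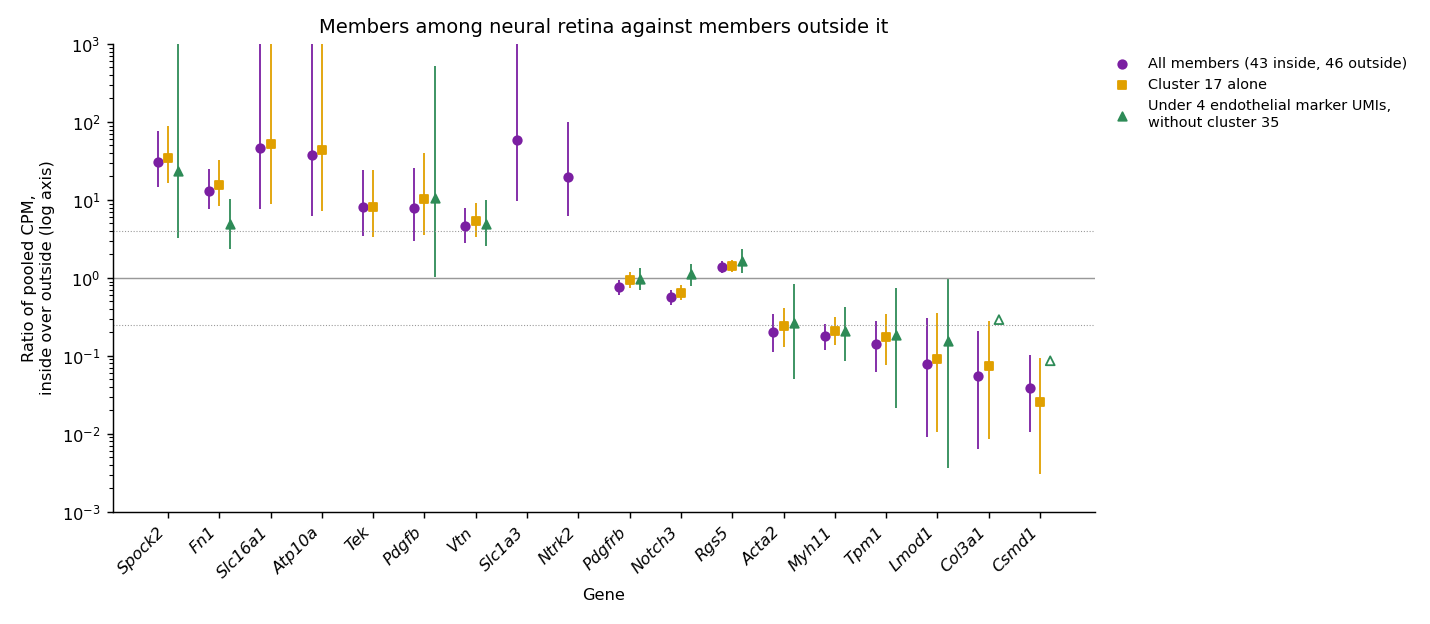
Ratios of pooled CPM (log axis), inside over outside members, for 18 genes in all members, in cluster 17 alone and in members with under 4 endothelial UMIs and outside cluster 35, with 95% intervals of 2 Poisson counts, cut at the axis limits; open symbols are bounds from a count of 0, ratios of 3 or fewer UMIs on both sides are left out, and dotted lines mark 4 and 0.25. Vtn, Fn1 and Spock2 lie above 4 and Tpm1 below 0.25 in all 3 sets; Myh11, Acta2, Notch3 and Rgs5 served to choose the members.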

How the data were processed

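The expression library of T1 was deposited as a matrix of UMI counts per gene and nucleus, and the spatial library as a table of chip positions per barcode. Per the submitters' processing notes, fastp, STAR and Seurat 4.1.1 and the build mm10 were used. Not given in the sources used here are their roles, the strand setting, the use of introns and the calling of nuclei. Counts are the authors' deposited counts, not normalized, and positions are in the authors' units.

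Nuclei were filtered as described in the report, and CPM, ratios and exact intervals were computed from summed counts with Python 3.11.15, numpy 2.4.6, pandas 2.3.3 and scipy 1.17.1. The 95% intervals cover counting error only. A count of 0 was set to 3 counts, and the ratio is then a bound. All kept nuclei were clustered with scanpy 1.11.5 and igraph 0.11.9 (Leiden, 2000 variable genes, 30 components, 15 neighbours, resolution 1). A cluster was left unnamed where a second marker list had at least 0.7 of the first list's markers, a limit chosen after seeing the data. Doublets were not called and free RNA was not removed. Pieces of tissue were found from the coordinates. Ratios and intervals were tested on simulated data. Shares of nuclei were also thinned to 500 UMIs.

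Named genes were, for each of 12 lists, up to 6 by level with at least 20 UMIs and any known mural gene at 0; the 20 of highest ratio to the highest set; and the 10 of highest and 10 of lowest ratio in each split. Genes named beyond these were chosen after their values were seen. Members, lists and splits were chosen with earlier results of these data known. Of 400 list symbols, 399 were among the features and 398 matched RefSeq. The replicate and genotype of T1 are not given, so no test across samples was run. Alternatives covered the rule, the fold, the level filter, the number of neighbours and the removal of nuclei. Some genes that these rules pick are not reported here.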

Additional observations from a re-analysis of the deposited data

How the results depend on the processing

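No paired analysis was possible because the labels of T1 give neither groups nor replicates. The number of members was 72 with Cdh5, Pecam1 and Ttn at 0 and 221 with no limit on them, against 113. Genes higher in members than in other kept nuclei numbered 1398 at 2 times and 226 at 8 times, against 592 at 4 times, and genes lower numbered 1595 and 448, against 865. Genes lower also numbered 563 with a mean CPM of at least 50 and 516 after thinning to 500 UMIs. Members among the neighbours of members were 3.70 times their share with 10 neighbours and 1.59 times with 50, against 2.51 times with 20. RPE-like nuclei there were 1.65 and 1.07 times, against 1.44 times. Inside members numbered 67 with a single limit at 0.5, against 43, and outside members 27 with 50 neighbours, against 46. The cause was not tested for any of these. Sets from cluster 17 alone, from members with few endothelial UMIs, without the nucleus of most rule UMIs, and places measured from the RPE line were chosen after seeing the data. Depth limits the sparse genes: a gene at 0 in members may still lie under the 3 counts that a count of 0 allows among 218597 UMIs. With 1 library, no value has a replicate check.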
